A study of Mus musculus with 22 samples.

Results

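Transcripts of the lactate dehydrogenases (LDH), of the monocarboxylate transporters (MCTs) that move lactate and pyruvate across membranes, and of the membrane proteins that escort those transporters were examined in whole testes of mice with and without the transcription factor MLX. The genes were chosen by name, for their role, and not by a threshold on their values, though earlier results of these data were known. They are 9 of the 17931 gene symbols in the count table, *Ldha*, *Ldhb*, *Ldhc*, *Ldhd*, *Slc16a1*, *Slc16a3*, *Slc16a7*, *Bsg* and *Emb*, and 9 of 9 had enough counts to be tested. RNA came from 3 WT males that were verified fertile breeders and 3 MLX KO males, age-matched littermates aged 7 months that received no treatment. MLX KO males carry a constitutive deletion, in every cell of the body, of the *Mlx* exons that encode the DNA-binding and dimerization region (made in 129S4 embryonic stem cells), so the loss is not confined to a cell type of the testis. The libraries were numbered as pairs 1 to 3, here WT1 to WT3 and KO1 to KO3.

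LDH enzymes interconvert pyruvate and lactate. They are tetramers of LDHA, the subunit of skeletal muscle, LDHB, the subunit of heart, and LDHC, which is made by germ cells from meiosis onward and is the main LDH of sperm, whereas LDHD is an unrelated mitochondrial enzyme that oxidizes D-lactate. In the seminiferous tubule, Sertoli cells export lactate made from glucose, and germ cells that have entered meiosis take it up as fuel. The transporters MCT1 (*Slc16a1*), MCT2 (*Slc16a7*) and MCT4 (*Slc16a3*) need a partner to reach the membrane, which is basigin (*Bsg*) for MCT1 and MCT4 and mainly embigin (*Emb*) for MCT2.

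*Mlx* itself had 128, 96 and 98 counts in WT1 to WT3 and 94, 109 and 102 counts in KO1 to KO3, a log2 fold change (LFC, MLX KO relative to WT) of -0.18 (SE 0.14, edgeR adjusted p = 0.326). The count covers the whole gene, including exons that the targeting left in place, so it does not check the labels. Directions below are those of libraries labelled KO against libraries labelled WT. The libraries held 16674678 to 19742726 counts, and 14640 genes were tested. Each was fitted by the quasi-likelihood method of edgeR, p values were adjusted over all of these genes after Benjamini and Hochberg, and a gene passed at an adjusted p under 0.05. CPM are counts brought to a common library size with TMM factors. TMM factors adjust for the RNA make-up of a library, not for the mix of cells in the tissue. These factors were 0.943 to 0.961 for the WT libraries and 1.02 to 1.07 for the KO libraries. The median LFC over all genes was 0.03, and scaling by library size alone raised it by 0.14. Libraries of a genotype differed by more than counting error. The chi-square per degree of freedom was 8.26 between KO1 and KO2, 8.25 between KO1 and KO3 and 2.73 between KO2 and KO3.

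Germ cell and somatic transcripts differed between the genotypes, and these values belong beside every result given here. Lists of cell type markers were summed in each library. Over all genes tested, 24.8% were higher and 20.6% lower in MLX KO, and counts of markers stand beside these shares. Among markers of elongating spermatids, 10 of 10 fell, whose summed CPM was 23433 to 24386 in WT and 13873 to 17007 in MLX KO, among them *Prm2*, a protamine that packs sperm DNA, at 5362 ± 263 and 3205 ± 375 CPM (SD, n = 3). Round spermatid markers fell for 9 of 9, from 1358 to 1398 in WT to 1096 to 1161 in MLX KO, and spermatocyte markers for 7 of 10, from 1759 to 1815 in WT to 1546 to 1616 in MLX KO. With library size alone as the scale, 10 elongating spermatid, 3 round spermatid, 1 spermatocyte and 1 peritubular myoid marker fell, beside 8.66% of all genes. On that scale 11 Sertoli cell, 7 Leydig cell, 8 macrophage, 3 spermatogonial, 4 endothelial and 5 peritubular myoid markers rose, beside 36.5% of all genes. Sertoli cell markers rose for 11 of 11, from 520 to 533 in WT to 729 to 880 in MLX KO. Leydig cell markers rose for 7 of 7, from 758 to 775 in WT to 1698 to 2175 in MLX KO, with *Insl3*, a Leydig cell hormone, at 225 ± 14.9 and 856 ± 97.2 CPM (SD, n = 3). Macrophage markers rose for 8 of 8 measured of 9 listed, from 76.7 to 82.6 in WT to 162 to 169 in MLX KO. Of the others, 2 of 9 spermatogonial markers rose and 1 fell (148 to 150 in WT, 161 to 172 in MLX KO). For endothelial markers, 2 of 7 rose (36.5 to 45.6 in WT, 52.6 to 59.1 in MLX KO). Both counts of markers that rose were near the share of all genes and are not read as a trait of these lists. Peritubular myoid markers rose for 4 of 6 and fell for 1 (310 to 369 in WT, 309 to 325 in MLX KO). The red blood cell list had 4 of 8 genes measured and 1 tested, which did not pass, with summed CPM of 19.5 to 21.8 in WT and 19.97 to 21.4 in MLX KO. Outside the red blood cell list, 0 measured markers were at 0 counts in all WT libraries. A marker meets that bar with 1 count in 1 library, so it does not check the tissue label. In RNA from a whole organ, fewer cells of a type and less RNA per cell cannot be told apart, and the part of cell composition in the differences given here was not tested.

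**Figure D1:**
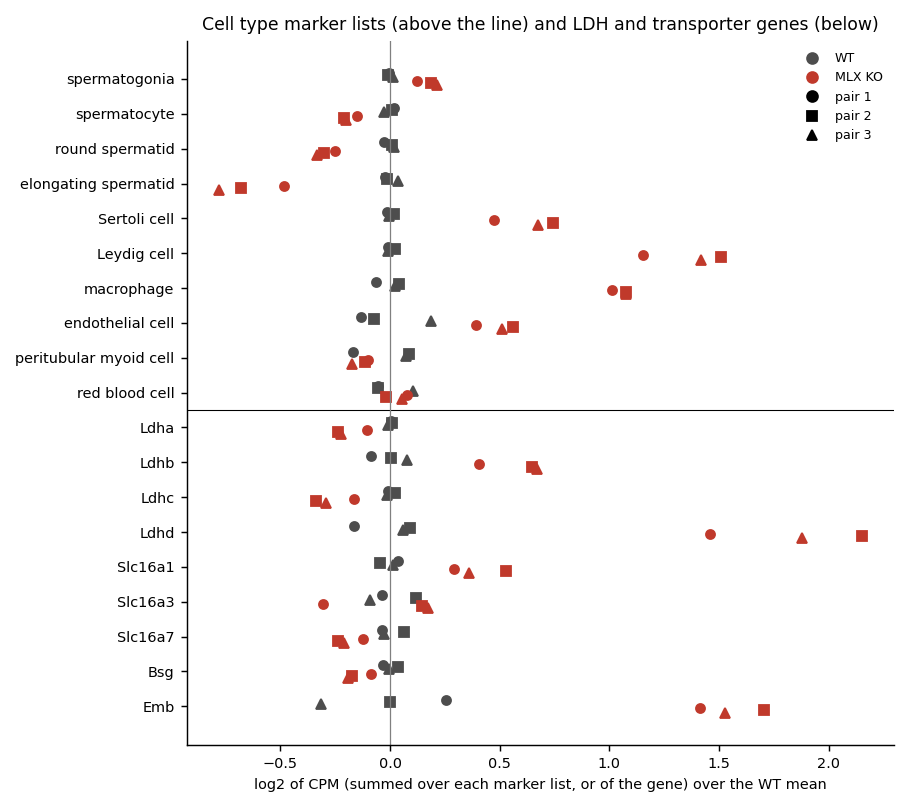
Log2 of the summed CPM of each cell type marker list, and of the CPM of each LDH, transporter or escort gene, over the mean of the 3 WT libraries; grey points are WT, red points are MLX KO, and the shape gives the pair. MLX KO points lie left of WT for the spermatid lists, *Ldha*, *Ldhc*, *Slc16a7* and *Bsg* and right of WT for the Sertoli, Leydig and macrophage lists, *Ldhb*, *Ldhd*, *Slc16a1* and *Emb*.

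Of the 9 genes, 4 were higher and 4 lower in MLX KO testes past the threshold, and *Slc16a3* did not pass. The higher genes were *Ldhb*, *Ldhd*, *Slc16a1* and *Emb*, and the lower genes were *Ldhc*, *Ldha*, *Slc16a7* and *Bsg*. Over all genes tested, 24.8% were higher and 20.6% lower, or 45.4% in either direction, so a call in either direction was frequent in this comparison. The CPM ranges of the genotypes did not overlap for these 4 higher and 4 lower genes, against 30.3% of all genes higher and 25.9% lower without overlap. Without overlap, each of the 8 had to go the same way in 3 of 3 pairs. The median LFC of the 9 was 0.02. With library size alone as the scale, the split was 4 higher and 1 lower, *Ldhc*, beside 36.5% of all genes higher and 8.66% lower on that scale. Library KO1 was the KO library nearest to the WT mean for 8 of the 8 genes, and also in the summed level of 9 of the 10 marker lists. The share of all genes nearest in KO1 was not counted, so this is not read as a trait of the 8.

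**Figure D2:**
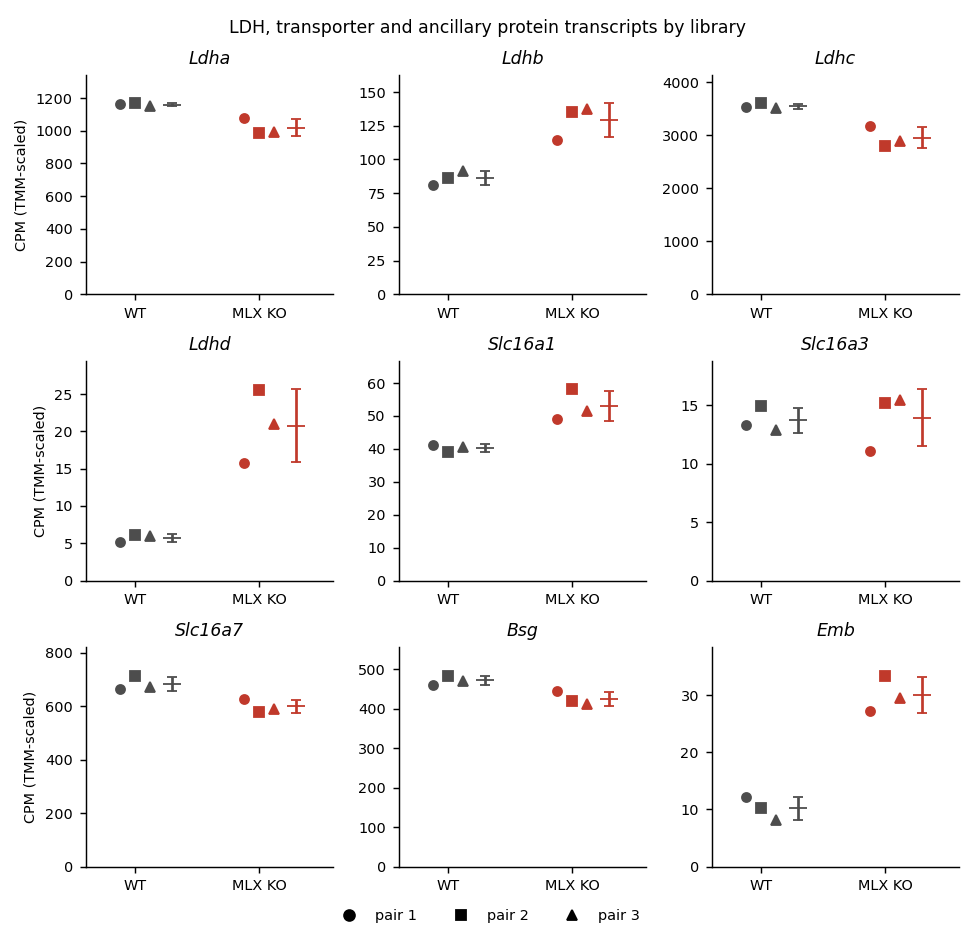
CPM (TMM-scaled, axes from 0) of the 9 genes in each library, WT in grey and MLX KO in red, with shapes for the pairs and the mean and SD of 3 libraries at the right of each group. *Ldhb*, *Ldhd*, *Slc16a1* and *Emb* lie higher in MLX KO without overlap, *Ldha*, *Ldhc*, *Slc16a7* and *Bsg* lie lower, and *Slc16a3* overlaps.

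Promoters were read because MLX and its partners bind E-boxes, the hexamer CACGTG. Germ cell genes switched on after meiosis also often carry a cAMP response element (CRE), the octamer TGACGTCA, whose core TGACG can stand alone. Shown are 4 promoters, those of the 3 genes with an E-box and that of *Ldhc*. The RefSeq promoter table for GRCm38.p6 (mm10) held 9 promoters for 7 of the genes, and *Bsg* and *Slc16a7* had no entry. Each line below gives the 250 bases before the transcription start, 5′ to 3′ on the gene's strand, with E-boxes and CRE letters in capitals. They are *Ldha* at chr7:46845554-46845803 (plus strand), *Ldhc* at chr7:46861013-46861262 (plus strand), *Slc16a1* at chr3:104638414-104638663 (plus strand) and *Ldhd* at chr8:111630337-111630586 (minus strand).
Ldha: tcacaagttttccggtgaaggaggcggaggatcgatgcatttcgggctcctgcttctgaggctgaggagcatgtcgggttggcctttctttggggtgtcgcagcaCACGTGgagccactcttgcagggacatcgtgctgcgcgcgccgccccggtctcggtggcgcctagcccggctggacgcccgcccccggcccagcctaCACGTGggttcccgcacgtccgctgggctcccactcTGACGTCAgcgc
Ldhc: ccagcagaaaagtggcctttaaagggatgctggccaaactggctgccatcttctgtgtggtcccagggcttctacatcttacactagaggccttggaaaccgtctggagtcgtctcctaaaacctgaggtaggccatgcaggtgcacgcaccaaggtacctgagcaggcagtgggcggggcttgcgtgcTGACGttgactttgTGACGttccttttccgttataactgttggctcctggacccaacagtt
Slc16a1: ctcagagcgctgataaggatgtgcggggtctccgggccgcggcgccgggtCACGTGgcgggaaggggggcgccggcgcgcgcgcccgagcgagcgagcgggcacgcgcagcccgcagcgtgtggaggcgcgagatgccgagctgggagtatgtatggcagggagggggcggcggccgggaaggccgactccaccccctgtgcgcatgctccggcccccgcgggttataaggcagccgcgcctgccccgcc
Ldhd: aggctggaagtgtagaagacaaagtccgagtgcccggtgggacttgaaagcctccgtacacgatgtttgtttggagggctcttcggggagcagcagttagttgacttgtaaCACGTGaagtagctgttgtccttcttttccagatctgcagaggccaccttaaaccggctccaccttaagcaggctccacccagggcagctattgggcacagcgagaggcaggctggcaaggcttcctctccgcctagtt
The *Ldha* promoter shown held 2 E-boxes, which began 145 and 48 bases before the start, and a full CRE 12 bases before it. *Slc16a1* had an E-box 200 bases and *Ldhd* an E-box 139 bases before the start. *Ldhc* had no E-box in this window and had 2 CRE cores, 61 and 47 bases before the start. The table holds a second promoter for each of *Ldha* and *Ldhc*, at chr7:46846832-46847081 and chr7:46861237-46861486. That of *Ldha* had a CRE core 143 bases before its start and neither an E-box nor a full CRE, and that of *Ldhc* had none of these motifs. Of the genes not shown, *Slc16a3* had a CRE core 29 bases before its start and no E-box. *Emb* and *Ldhb* had neither an E-box nor a CRE core. Read on both strands over the 250 bases before and 50 after each start, the E-box was in 3 of the 9 promoters and in 7.15% of 32851 mouse promoters, the full CRE in 1 and in 1.79%, and the CRE core, which the full CRE contains, in 4 and in 20.8%. The GC box GGGCGG was in 5 of the 9 and in 35.7% of all. Of the 3 genes with an E-box in a promoter window, *Ldhd* and *Slc16a1* were higher and *Ldha* lower in MLX KO testes. A match of letters is a description and not evidence of binding.

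*Ldhc*, the germ cell LDH, lies on chromosome 7 of mm10 from 46861263 to 46878147, 5.636 kb downstream of *Ldha*, which spans 46842274 to 46855627 on the same strand. It was among the 5 genes with the most counts in every library, with 0.298% to 0.340% of all counts. Its counts were 66912, 56663 and 62201 in WT1 to WT3 and 61423, 50688 and 54661 in KO1 to KO3, or 3528, 3603 and 3507 CPM in WT and 3168, 2804 and 2894 CPM in MLX KO. The 3 KO libraries lay below the 3 WT libraries, and KO1 lay highest among them. *Ldhc* fell from 3546 ± 50.5 to 2955 ± 190 CPM (SD, n = 3), an LFC of -0.26 (SE 0.06, 95% confidence interval -0.39 to -0.13, edgeR adjusted p = 0.0039). It passed the threshold in each alternative fit, with an LFC of -0.12 (edgeR adjusted p = 0.0130) under library size alone.

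*Ldha*, the neighbour of *Ldhc* and the subunit made in most tissues, had 22050, 18361 and 20426 counts in WT1 to WT3 and 20929, 17787 and 18781 in KO1 to KO3. These were 1163, 1168 and 1152 CPM in WT and 1080, 984 and 994 CPM in MLX KO. The groups did not overlap, and WT libraries differed by little. *Ldha* fell from 1161 ± 8.06 to 1019 ± 52.5 CPM (SD, n = 3), an LFC of -0.19 (SE 0.05, edgeR adjusted p = 0.0124). That call was lost without KO2 (edgeR adjusted p = 0.0695), KO3 (0.0626) or WT2 (0.0551), and under library size alone, where the LFC was -0.05 (edgeR adjusted p = 0.236). RefSeq lists 3 pseudogenes named for *Ldha* and 1 for *Ldhb*, and 0 of them have a row in the table. How reads that match both a gene and such a copy were counted is not known.

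*Ldhb*, the heart-type subunit, on chromosome 6 from 142490249 to 142507957, rose 1.49-fold. Its counts were 1543, 1360 and 1618 in WT1 to WT3 and 2220, 2442 and 2599 in KO1 to KO3. In CPM these were 81.3, 86.5 and 91.2 in WT against 115, 135 and 138 in MLX KO. Each KO library was above each WT library, with KO1 lowest. The mean went from 86.4 ± 4.94 to 129 ± 12.7 CPM (SD, n = 3), with an LFC of 0.58 (SE 0.07, edgeR adjusted p = 0.000128).

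*Ldhd*, the D-lactate dehydrogenase, on chromosome 8 from 111625611 to 111630336 (minus strand), showed the largest change of the set. It had 97, 96 and 106 counts in WT1 to WT3 and 306, 461 and 398 in KO1 to KO3, or 5.11, 6.10 and 5.98 CPM in WT and 15.8, 25.5 and 21.1 CPM in MLX KO. The lowest KO library lay well above the highest WT library. *Ldhd* rose from 5.73 ± 0.539 to 20.8 ± 4.87 CPM (SD, n = 3), a 3.63-fold increase (LFC 1.86, SE 0.17, edgeR adjusted p = 1.83e-05). In GENCODE, 2246 of its exon bases overlap exons of *Znrf1*, a ubiquitin ligase gene on the opposite strand, and no source used here says whether counting used strand. *Znrf1*, named for this overlap, was at 65.3 ± 1.63 CPM in WT and 66.7 ± 2.06 in MLX KO (SD, n = 3), an LFC of 0.03 (edgeR adjusted p = 0.644).

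Among the transporters, *Slc16a1* rose, *Slc16a7* fell and *Slc16a3* did not pass the threshold. *Slc16a1* encodes MCT1, the transporter found in most tissues, on chromosome 3 from 104638664 to 104658462. Its counts were 782, 612 and 719 in WT1 to WT3 and 954, 1050 and 975 in KO1 to KO3, or 41.2, 38.9 and 40.5 CPM in WT and 49.2, 58.1 and 51.6 CPM in MLX KO. The groups did not overlap. The increase from 40.2 ± 1.19 to 53.0 ± 4.59 CPM (SD, n = 3) was 1.32-fold (LFC 0.40, SE 0.07, edgeR adjusted p = 0.000959).

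*Slc16a7* encodes MCT2, a transporter with high affinity for lactate and pyruvate that is abundant in male germ cells, on chromosome 10 from 125219270 to 125389586. Its counts were 12620, 11240 and 11891 in WT1 to WT3 and 12179, 10465 and 11161 in KO1 to KO3, or 665, 715 and 671 CPM in WT and 628, 579 and 591 CPM in MLX KO. The KO libraries were the 3 lowest. *Slc16a7* fell from 684 ± 27.2 to 599 ± 25.7 CPM (SD, n = 3), an LFC of -0.19 (SE 0.05, edgeR adjusted p = 0.0125). The call was lost without KO2 (edgeR adjusted p = 0.0652), KO3 (0.0523) or WT2 (0.0737), and under library size alone (LFC -0.05, edgeR adjusted p = 0.269).

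*Slc16a3* encodes MCT4, which exports lactate from glycolytic cells, on chromosome 11 from 120948484 to 120959000, 19.9 Mb from *Mlx* on the same chromosome. It had 253, 234 and 228 counts in WT1 to WT3 and 215, 274 and 292 in KO1 to KO3. The CPM were 13.3, 14.9 and 12.9 in WT against 11.1, 15.2 and 15.5 in MLX KO. The KO libraries lay on both sides of the WT libraries, with KO1 lowest of the 6. With means of 13.7 ± 1.06 and 13.9 ± 2.44 CPM (SD, n = 3), the LFC was 0.02, with a 95% confidence interval of -0.26 to 0.30 (edgeR adjusted p = 0.898), and its sign turned with the scaling and with the library left out.

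Of the escort proteins, *Emb* rose and *Bsg* fell. *Emb*, on chromosome 13 from 117220573 to 117274415, had 232, 161 and 146 counts in WT1 to WT3 and 528, 604 and 558 in KO1 to KO3, or 12.2, 10.2 and 8.23 CPM in WT and 27.2, 33.4 and 29.5 CPM in MLX KO. The lowest KO library was above the highest WT library. *Emb* rose from 10.2 ± 2.00 to 30.1 ± 3.12 CPM (SD, n = 3), or 2.93-fold (LFC 1.55, SE 0.13, edgeR adjusted p = 1.07e-05). It shares 686 exon bases with a gene model on the opposite strand that has no row in the table.

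*Bsg*, whose loss makes male mice sterile, lies on chromosome 10 from 79704358 to 79711979. It had 8745, 7612 and 8335 counts in WT1 to WT3 and 8613, 7564 and 7791 in KO1 to KO3. These were 461, 484 and 470 CPM in WT and 444, 418 and 412 CPM in MLX KO, without overlap and with KO1 close to WT1. The fall from 472 ± 11.6 to 425 ± 16.9 CPM (SD, n = 3), an LFC of -0.15 (SE 0.05, edgeR adjusted p = 0.0272), was the smallest of the 8. With the littermate pair as a block the edgeR adjusted p was 0.0658, under library size alone it was 0.804 at an LFC of -0.01, and the call was lost without WT1 (0.0514), WT2 (0.115), WT3 (0.0736), KO2 (0.104) or KO3 (0.118).

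**Figure D3:**
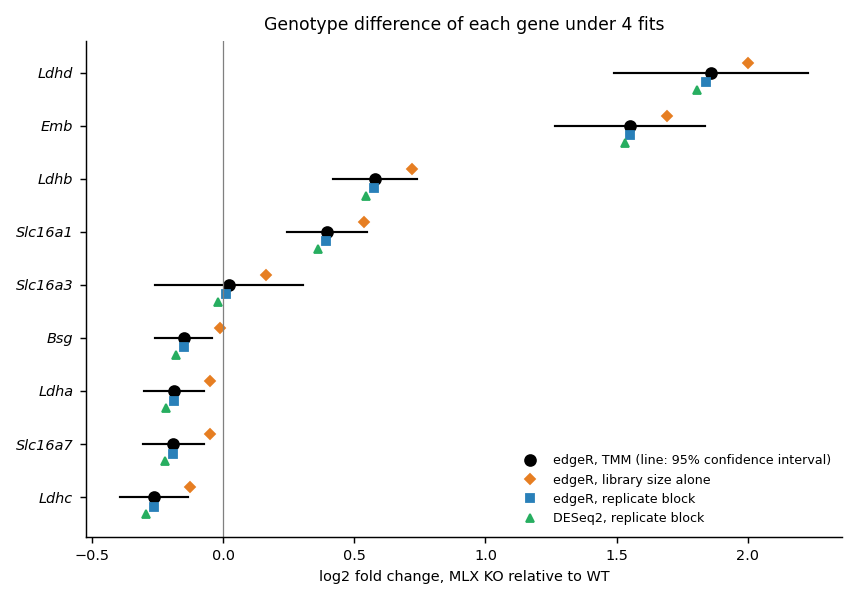
LFC (MLX KO relative to WT) of the 9 genes, ordered by value, with TMM scaling and its 95% confidence interval in black, library size alone in orange, and the littermate pair as a block in edgeR (blue) and DESeq2 (green). Library size alone shifts each value to the right, to -0.05 for *Ldha* and *Slc16a7* and -0.01 for *Bsg*.

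Levels were compared between genes per length, as CPM per kilobase of exon (union of GENCODE exons). In WT testes *Ldhc* stood highest at 2244 ± 31.9 (SD, n = 3), 6.40 times *Ldha* at 351 ± 2.44. *Bsg* followed at 260 ± 6.39, then *Slc16a7* at 57.7 ± 2.29 and *Ldhb* at 55.0 ± 3.15, which overlapped each other. Lower still were *Slc16a1* at 9.09 ± 0.268, *Slc16a3* at 2.57 ± 0.199, *Emb* at 1.48 ± 0.290 and *Ldhd* at 1.08 ± 0.101. MLX KO testes kept *Ldhc* (1871 ± 120), *Ldha* and *Bsg* at the top. There *Ldhb* at 82.2 ± 8.07 stood above *Slc16a7* at 50.6 ± 2.17, and *Emb* at 4.35 ± 0.452 and *Ldhd* at 3.90 ± 0.913, which overlapped each other, stood above *Slc16a3* at 2.61 ± 0.459. The 4 genes that fell in MLX KO had the 4 highest WT means per kilobase. These levels depend on the length used. With the longest transcript in place of the union of exons, the WT means were 2588 for *Ldhc* and 639 for *Ldha*, and 5 of the 9 genes held their WT place. *Slc16a7* (62.2) then stood below *Ldhb* (66.2), and *Slc16a3* (3.16) below *Emb* (3.50).

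As shares of the summed level per kilobase of *Ldha*, *Ldhb* and *Ldhc*, *Ldhc* made up 84.7% ± 0.148 in WT and 82.7% ± 0.607 in MLX KO (SD, n = 3). *Ldhb* made up 2.08% ± 0.126 and 3.66% ± 0.540, and *Ldha* 13.2% and 13.6%. Of the 3 transporters, *Slc16a7* made up 83.2% in WT and 77.6% in MLX KO, and *Slc16a1* 13.1% and 18.4%. The share of *Emb* in the sum of *Emb* and *Bsg* was 0.568% and 1.83%, or 1.12% and 3.57% with the longest transcript as the length. On that length *Ldhc* made up 78.6% and 76.5% of its sum, *Ldhb* 2.01% and 3.53%, and *Slc16a7* 83.5% and 78.2% of the transporters.

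Ratios of counts within a library do not depend on how libraries are scaled, and 6 were compared between the genotypes. For each of the 6, the 3 KO libraries lay on the same side of the 3 WT libraries. The exact permutation test gave a two-sided p = 0.1, also 0.1 after adjustment over the 6. That is the smallest p that 3 libraries against 3 allow. Such separation was already fixed for *Ldhb* to *Ldha*, *Ldhc* to *Ldhb*, *Slc16a7* to *Slc16a1* and *Emb* to *Bsg*. In each of these, the CPM of the genes moved in opposite directions without overlap. It was open only for *Ldhc* to *Ldha* and *Slc16a3* to *Slc16a1*. The log2 ratio of *Ldhb* to *Ldha* was -3.84, -3.75 and -3.66 in WT1 to WT3 and -3.24, -2.86 and -2.85 in KO1 to KO3, a difference of 0.77 (SE 0.14). *Ldhc* to *Ldhb* differed by -0.84 (SE 0.14). *Ldhc* to *Ldha* went from 1.601, 1.626 and 1.607 in WT to 1.553, 1.511 and 1.541 in MLX KO, a small difference of -0.08 (SE 0.01). For *Slc16a7* to *Slc16a1* the difference was -0.58 (SE 0.12), and for *Slc16a3* to *Slc16a1* it was -0.39 (SE 0.15). *Emb* to *Bsg* was -5.24, -5.56 and -5.84 in WT against -4.03, -3.65 and -3.80 in MLX KO, the largest of the 6 differences at 1.72 (SE 0.21). All 6 differences had the same sign in 3 of 3 pairs, as groups without overlap must.

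**Figure D4:**
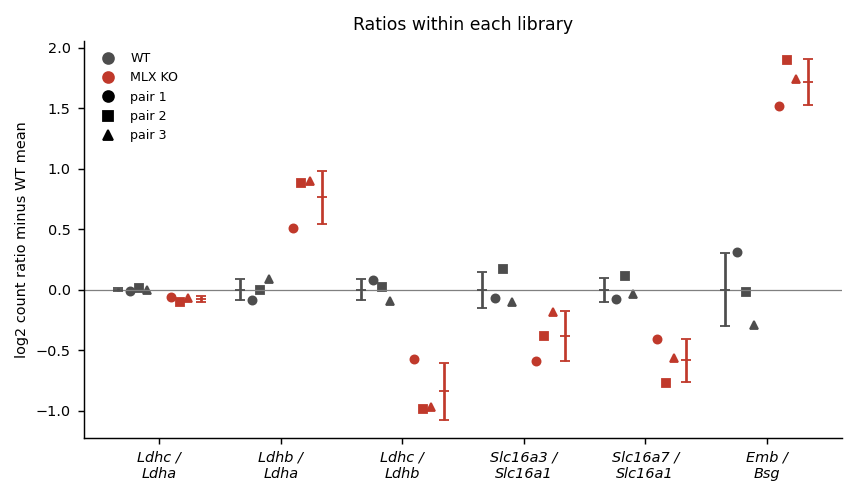
Log2 ratio of the counts of a pair of genes within each library, minus the WT mean of that ratio, for WT (grey) and MLX KO (red), with shapes for the littermate pairs and bars for the mean and SD of 3 libraries. The KO points lie apart from the WT points for each of the 6 ratios, by 0.08 for *Ldhc* to *Ldha* and by 1.72 for *Emb* to *Bsg*.

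The other genes of lactate and pyruvate handling were taken from lists made by function. Of 41 listed genes 37 were tested, and 16 were higher and 7 lower in MLX KO, beside 24.8% and 20.6% of all genes. All 7 lower calls were lost with library size alone as the scale, where 24 genes were higher, beside 36.5% of all genes higher and 8.66% lower on that scale. Of 10 tested relatives of the transporters and their escorts (13 listed), 3 rose and 7 did not pass, with a median LFC of 0.34 beside 0.03 over all genes. *Slc16a13* rose most (LFC 1.34, SE 0.17), followed by *Slc16a6* (LFC 0.79, SE 0.16), at mean WT levels of 2.06 and 4.998 CPM. *Nptn*, a close relative of basigin, went from 37.3 ± 0.896 to 46.3 ± 3.42 CPM (SD, n = 3; LFC 0.31, SE 0.07).

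Of 15 genes for the entry of pyruvate into mitochondria and its oxidation, 4 rose, 5 fell and 6 did not pass (median LFC 0.07). Over all genes, 24.8% were higher and 20.6% lower. The number that rose was near the share of all genes, and is not read as a shift of the list. With library size alone 8 were higher and 0 lower, beside 36.5% and 8.66% of all genes. The E1 alpha subunits of pyruvate dehydrogenase moved in opposite directions. *Pdha1*, the X-linked form, rose from 6.77 ± 0.0687 to 12.4 ± 0.899 CPM (SD, n = 3; LFC 0.87, SE 0.10). *Pdha2*, the testis form on an autosome, fell from 203 ± 6.62 to 179 ± 9.85 CPM (SD, n = 3; LFC -0.18, SE 0.05). Of the kinases that switch the complex off, *Pdk4* rose (LFC 0.80, SE 0.29) from a low mean WT level of 2.06 CPM. The log2 ratio of *Pdk4* was 2.02, 0.42 and 0.16 in pairs 1 to 3. *Pdk2* (LFC -0.24, SE 0.05) and *Pdk3* (LFC -0.17, SE 0.05) fell, at mean WT levels of 217 and 97.7 CPM. *Pdp2*, a phosphatase that switches the complex on, rose (LFC 1.09, SE 0.21) from 2.02 CPM in WT. The kinase gene *Pdk1* (LFC 0.19, edgeR adjusted p = 0.0677) and the phosphatase gene *Pdp1* (LFC 0.08, edgeR adjusted p = 0.201) did not pass. *Mpc2*, a subunit of the mitochondrial pyruvate carrier, fell (LFC -0.22, SE 0.05), as did *Pdhx*, which tethers a subunit of the complex (LFC -0.24, SE 0.05), and *Pcx*, pyruvate carboxylase, rose (LFC 0.51, SE 0.07). The *Pdk4* call was lost with DESeq2 (adjusted p = 0.0572), with DESeq2 and the pair as a block (0.136), and in edgeR without WT1, WT2, KO1 or KO2 (0.0557 to 0.133). Those of *Pdha2* (without WT2, KO2 or KO3) and *Pdk3* (without WT1, WT2 or KO3) were each lost in 3 of 6 fits that left out a library.

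Of 12 tested genes whose products make or use lactate, pyruvate or the partners of their redox reactions (13 listed), 9 rose, 2 fell and 1 did not pass (median LFC 0.43). Over all genes, 24.8% were higher and 20.6% lower. With library size alone 10 were higher and 0 lower, beside 36.5% and 8.66% of all genes. *Ldhal6b*, an LDHA-like gene of the testis, fell from 772 ± 17.3 to 691 ± 21.2 CPM (SD, n = 3; LFC -0.16, SE 0.05). Per kilobase it stood at 534 in WT (mean, n = 3), between *Ldhc* and *Ldha*, but with the longest transcript as the length it stood below *Ldha* (639). The glyoxalases, which make D-lactate, the substrate of LDHD, from methylglyoxal, split, as *Glo1* rose from 18.7 ± 0.538 to 25.5 ± 1.29 CPM (SD, n = 3; LFC 0.45, SE 0.07) and *Hagh* fell from 228 ± 5.19 to 193 ± 20.4 CPM (SD, n = 3; LFC -0.24, SE 0.07). The *Ldhal6b* call was lost with the littermate pair as a block (edgeR adjusted p = 0.0549) and without WT2, WT3, KO2 or KO3 (0.0513 to 0.0906), and that of *Hagh* without WT2 (0.0535) or KO2 (0.0567). The enzymes of the malate-aspartate shuttle, which carries cytosolic NADH equivalents into mitochondria, were all higher: *Mdh1* by an LFC of 0.87 (SE 0.08), *Mdh2* by 0.38 (SE 0.07), *Got1* by 0.26 (SE 0.09) and *Got2* by 0.54 (SE 0.08). The *Got1* call was lost with DESeq2 (adjusted p = 0.123), with DESeq2 and the pair as a block (0.259), and in edgeR without WT3, KO2 or KO3 (0.0655 to 0.119). *Gpt2*, which exchanges alanine and pyruvate, rose from 57.2 ± 9.83 to 123 ± 35.4 CPM (SD, n = 3; LFC 1.10, SE 0.19), and the malic enzymes *Me1* (LFC 0.24, SE 0.05) and *Me2* (LFC 0.75, SE 0.07) and the LDH-domain gene *Uevld* (LFC 0.41, SE 0.10) also rose, *Uevld* not past the threshold in DESeq2 with the pair as a block (adjusted p = 0.0634).

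**Figure D5:**
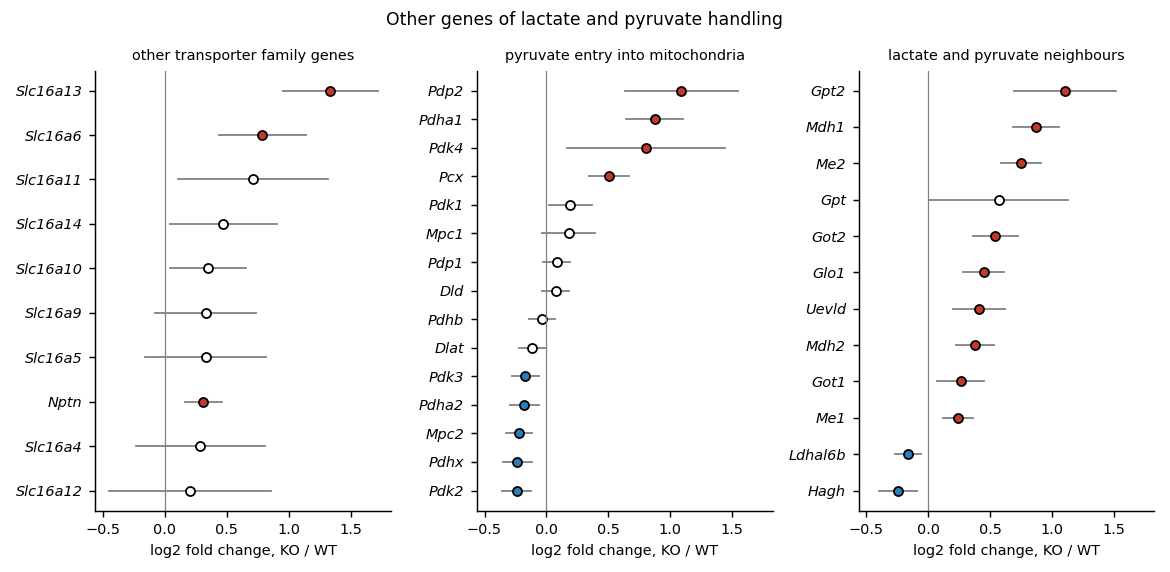
LFC (MLX KO relative to WT) with 95% confidence intervals of the tested genes of the 3 lists, transporter relatives at the left, pyruvate entry in the middle and lactate and pyruvate neighbours at the right; red points were higher, blue points lower and open points not past the threshold. Of the 37 genes, 16 are red and 7 blue, and the blue points lie between -0.24 and -0.16.

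The patterns most like those of *Ldhc* and *Slc16a1* over the 6 libraries were found by Pearson's r of log2 CPM, as a description. For *Ldhc* they were *Fam229b*, *Syce1*, a protein of the meiotic synaptonemal complex, and *Ybx1*, a nucleic acid-binding protein, each at r = 0.999, with LFCs of -0.33, -0.30 and -0.25. For *Slc16a1* they were *Txndc5*, a disulfide isomerase of the endoplasmic reticulum, at r = 0.999, *Uxs1*, which makes UDP-xylose, at r = 0.998, and *Ezr*, a linker of membrane and cytoskeleton, at r = 0.998, with LFCs of 0.30, 0.49 and 1.36. The points are 6 libraries of WT and MLX KO testes that also differ in composition, and 1466 genes had r over 0.95 with *Ldhc* and 1002 with *Slc16a1*.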

How the data were processed

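Whole testes of 3 WT and 3 MLX KO males were sequenced by the authors as total RNA extracted with Trizol, in paired-end reads. The authors aligned reads with TopHat to mm10 and deposited a table of raw counts per gene symbol, in whole numbers. The counting tool, annotation and strand setting are not given in the sources used here, and the submitters' processing notes also name bcl2fastq 1.8.4 and DESeq2. The table also holds the authors' own KO against WT comparison (mean, log2 fold change, standard error, test statistic, p-values), which was not used. ChIP-Seq samples were not analysed here.

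Of 17933 rows, 2 repeated another. edgeR 4.0.16 in R 4.3.3 was run with a minimum count of 10, TMM, the quasi-likelihood test and genotype as the only term, over 14640 genes, with Benjamini-Hochberg adjustment. Ratios were tested by exact permutation. Alternatives were DESeq2 1.42.0, other scalings and filters, the littermate pair as a block, each library left out, and the longest transcript as length. Sample titles and the study's text give the pairing; deviations from the group means correlated at 0.145, 0.0363 and 0.121 within pairs and at most 0.0330 otherwise. Counts of libraries of a genotype differed beyond counting error. The libraries held 16674678 to 19742726 counts, and confidence intervals give the precision for each gene.

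The 9 genes, the gene lists and the tests were chosen with earlier results of these data known. A listed gene is not reported here and was left out of the list counts. Named are the 9 genes, tested genes of the pathway lists, the 2 most abundant markers at most of each cell type list, and the 3 genes most correlated with *Ldhc* and with *Slc16a1*. On simulated data with 200 changed genes among 14665, edgeR recovered 98% and made 7 false calls. The simulation gave every gene the same dispersion and changed a far smaller share of genes than the 45.4% called here. These rates therefore do not carry over to the real libraries. Recovery at LFCs as small as those of the lower genes among the 9 was not tested.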

Additional observations from a re-analysis of the deposited data

How the results depend on the processing

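Of 126 fits of the 9 genes under alternatives, 105 kept direction and side of the threshold, 15 lost a call and 6 turned sign. The 4 higher calls were made in each of the 8 other settings and with each library left out. Lower calls numbered 4 with TMM, 1 with library size alone, 3 with the replicate block in edgeR, and 1 to 4 with a library left out (1 without WT2, KO2 or KO3). The replicate block changed only the call of *Bsg* among the 9 (edgeR adjusted p = 0.0658). For ratios, the block test has a smallest p of 0.25, and the 6 differences kept their sign in every alternative. All 6 changes of sign were of *Slc16a3*, whose LFC was -0.0087 with DESeq2, -0.0039 with DESeq2's size factors, -0.020 with the replicate block in DESeq2, and -0.0558 to 0.167 with a library left out. Pathway genes past the threshold numbered 23, 20 to 24 in other settings and 18 to 23 with a library left out. With the longest transcript as length, 5 of the 9 genes held their WT place. The causes were not tested. *Ldhd*, *Slc16a3* and *Emb*, with 96 to 604 counts per library, had the widest confidence intervals of the 9.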
